A study of Mus musculus with 23 samples.

Results

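The genes of heme synthesis were followed across normal thymus and T-ALL-bearing spleens of the mouse. The rows named Alas1, Alas2, Alad, Uros, Urod, Cpox, Ppox, Fech and Slc25a38 were taken, which are 9 of the 24475 genes measured by RNA sequencing. Of these, 7 encode enzymes found in all tissues (Alas1, Alad, Uros, Urod, Cpox, Ppox and Fech), Alas2 encodes the form of the entry enzyme that is restricted to erythroid cells, and Slc25a38 encodes a mitochondrial carrier that brings in glycine.

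The series held 23 libraries, and each T-ALL library is an individual case. The 6 control libraries were thymus of normal C57BL/6 mice, with no age given. The 14 libraries called WT T-ALL were unfractionated spleens of BALB/c hosts lacking Rag2 and Il2rg, which had received a newborn wild-type thymus lobe (a congenic CD45.1 donor on the C57BL/6 background) beneath the kidney capsule and had developed T-cell acute lymphoblastic leukemia. The 3 libraries called Notch3 KO T-ALL came from the same kind of host and tissue, with a donor thymus whose Notch3 gene carried a beta-galactosidase insertion in its first coding exon. Hosts of both T-ALL groups thus shared the loss of Rag2 and Il2rg, and kept their own stromal, erythroid and myeloid cells with an intact Notch3. Normal spleen was not analysed here, so that spleen against thymus, BALB/c host cells and leukemia cannot be told apart in a comparison with thymus. Notch3 itself was at log2 2.62 to 4.29 in thymus and 3.17 to 5.78 in WT T-ALL, and at 3.22, 2.59 and 3.74 in Notch3 KO T-ALL 1, 2 and 3; a sum over the whole gene with host cells present does not check the insertion.

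Heme is an iron-bearing ring built in steps that start and end in the mitochondrion. Glycine and succinyl-CoA are joined to 5-aminolevulinate by ALAS, 2 molecules of it are condensed by ALAD, and the ring is then closed and trimmed in the cytosol, with UROS and UROD among the enzymes of these steps. CPOX and PPOX oxidise the side chains and the ring in the mitochondrion, and FECH inserts iron. All cells make some heme for respiratory proteins, through ALAS1, whose production is held down by heme. Red cell precursors, which are abundant in mouse spleen, make very large amounts for hemoglobin, through ALAS2 under the erythroid factors GATA1 and KLF1.

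The 250 bases before the transcription start were read for the members in the RefSeq promoter table (GRCm38.p6), which held 11 starts of 8 members, all but Fech. They are shown for Alas2 and Alas1, the erythroid and the general form of the same enzyme, for Alad, which had the next widest change after Alas2 and no GATA match, and for Cpox, which had a narrower change and GATA matches. These were chosen after the matches were seen. Capitals mark GATA matches (AGATAA, with TGATAA as a variant, or AGATAG, with TGATAG as a variant) and CACCC-type matches (CCNCNCCC), on either strand. The CACCC letters also take in GC boxes, and some neighbouring CACCC matches overlap each other. Alas2 lies on chromosome X, plus strand (window chrX:150547167-150547416), Alas1 on chromosome 9, minus strand (the upstream of its 2 starts, window chr9:106247955-106248204), Alad on chromosome 4, minus strand (also the upstream of 2 starts, window chr4:62520064-62520313), and Cpox on chromosome 16, plus strand (window chr16:58669958-58670207).
Alas2: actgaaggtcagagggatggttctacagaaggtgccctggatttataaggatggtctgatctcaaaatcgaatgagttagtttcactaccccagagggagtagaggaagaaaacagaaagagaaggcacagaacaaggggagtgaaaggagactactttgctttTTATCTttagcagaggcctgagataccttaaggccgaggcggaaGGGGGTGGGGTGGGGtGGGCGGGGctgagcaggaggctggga
Alas1: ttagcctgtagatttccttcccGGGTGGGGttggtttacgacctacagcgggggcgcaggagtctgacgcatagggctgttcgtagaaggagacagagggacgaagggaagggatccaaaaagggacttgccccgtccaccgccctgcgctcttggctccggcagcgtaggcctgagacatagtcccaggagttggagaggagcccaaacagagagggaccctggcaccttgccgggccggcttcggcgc
Alad: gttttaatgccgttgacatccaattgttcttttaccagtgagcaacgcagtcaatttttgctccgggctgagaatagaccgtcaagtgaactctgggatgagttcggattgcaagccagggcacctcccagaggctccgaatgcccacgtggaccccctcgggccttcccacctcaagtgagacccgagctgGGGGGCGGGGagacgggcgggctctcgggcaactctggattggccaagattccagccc
Cpox: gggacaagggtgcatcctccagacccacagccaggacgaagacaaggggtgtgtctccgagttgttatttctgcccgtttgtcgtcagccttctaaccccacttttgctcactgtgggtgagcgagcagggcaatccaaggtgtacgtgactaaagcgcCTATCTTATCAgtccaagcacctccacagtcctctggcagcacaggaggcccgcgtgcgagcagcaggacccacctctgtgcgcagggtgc
The Alas2 window held 1 GATA match, which began 86 bases before the start, and 4 CACCC-type matches that began 42, 40, 35 and 26 bases before it, of which the last overlaps none of the others. The Cpox window held 2 overlapping GATA matches, 91 and 86 bases before the start. The Alas1 window held no GATA match and 1 CACCC-type match, 228 bases before the start. The other Alas1 start held no GATA match and 2 CACCC-type matches, 206 and 47 bases before it. The Alad window held no GATA match and 2 overlapping CACCC-type matches, 58 and 56 bases before the start. The other Alad start held no GATA match either, and 4 CACCC-type matches, some overlapping. Among the other windows, the downstream of 2 starts of Uros (window beginning at 133702501 on chromosome 7, minus strand) held 2 GATA matches, 205 and 68 bases before it. In all, 3 of the 11 member starts held a GATA match and 7 held a CACCC-type match, beside 26.5% and 45.9% of all 32851 starts in the table. Matches to GCGCANGC, the letters of a nuclear respiratory factor 1 (NRF1) site, were at 3 of the 11 starts and at 8.3% of all; 3 of them, some overlapping, stood before the downstream start of Alas1. TGANTCA, an NF-E2-type site, was at 0 of the 11 and 6.7% of all. A match is a run of letters and not a sign of binding.

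Levels are the deposited log2 values, log2(RPKM + 1), where RPKM, reads per length of transcript and per size of library, was set so that its 75th percentile in a library is 10. Differences are given on that log2 scale, which understates the change of genes with low values. A change was called at an adjusted p under 0.05 in limma, over all genes that reached a scaled RPKM of 1 in 3 or more of the fitted libraries, and the Benjamini-Hochberg adjustment ran over all these genes. All 9 members passed this filter; Alas2 reached 1 in 1 of 6 thymus libraries and in all 17 spleens, so it passed through the spleens.

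The libraries differed in other respects. Relative depth, read from the steps between low values, went down to 17.05% of that of the deepest library, and WT T-ALL 7 had 45.9% of its signal in mitochondrial transcripts against 7.30% to 24.2% elsewhere. Globin transcripts made up 0.0093% to 0.117% of the signal in thymus, while WT T-ALL had 0.0874% to 5.92% and Notch3 KO T-ALL 4.05% to 15.5%. The mean log2 level of 24 erythroid markers was 0.757 to 1.78 in thymus, WT T-ALL had 3.08 to 6.90 and Notch3 KO T-ALL had 5.99 to 7.96, and 22 and 23 of the 24 were called higher than in thymus, with 0 lower. No erythroid marker was at 0 throughout a group. The T cell list, present in all libraries, had a mean of 8.05 to 8.32 in thymus, against 5.34 to 7.21 in the WT spleens and 5.74 to 7.10 in the Notch3 KO spleens, with 8 of 12 genes called lower in each T-ALL group. Hepatocyte genes stood out in WT T-ALL 14, with a mean of 5.56 and Alb at 7.52, and in WT T-ALL 48, with a mean of 2.90, against at most 0.95 in any other library. In bulk RNA of this kind, fewer or more cells of a type and less or more RNA per cell cannot be told apart.

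In WT T-ALL, 6 of the 9 genes were higher than in thymus and none was called lower: Alas2, Alad, Fech, Cpox, Uros and Urod. Among all 11919 genes tested, 29.3% were called higher and 22.3% lower (3493 and 2657 genes, or 2942 and 3044 with quantile normalization). The median change of the 9 was 0.67 and that of all genes was 0.08. Alas1, Ppox and Slc25a38 were not called. In Notch3 KO T-ALL against the same thymus libraries, 7 of the 9 were called higher, the same 6 and Ppox, with 0 lower, where 21.2% of all genes were called higher and 16.3% lower (2527 and 1948, or 2082 and 2396 with quantile normalization), and the median change was 1.88 against 0.08 for all genes. The 2 comparisons share their control samples. In these same comparisons, WT T-ALL first, 22 and 23 of the 24 erythroid markers were called higher (median change 3.66 and 5.60), as were 10 and 4 of the 10 neutrophil markers (3.77 and 2.97), 8 and 8 of the 8 megakaryocyte markers tested (0.98 and 2.80) and 11 and 12 of the 12 macrophage markers (1.20 and 2.51). The part of these cell types in the result was not tested.

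**Figure D1:**
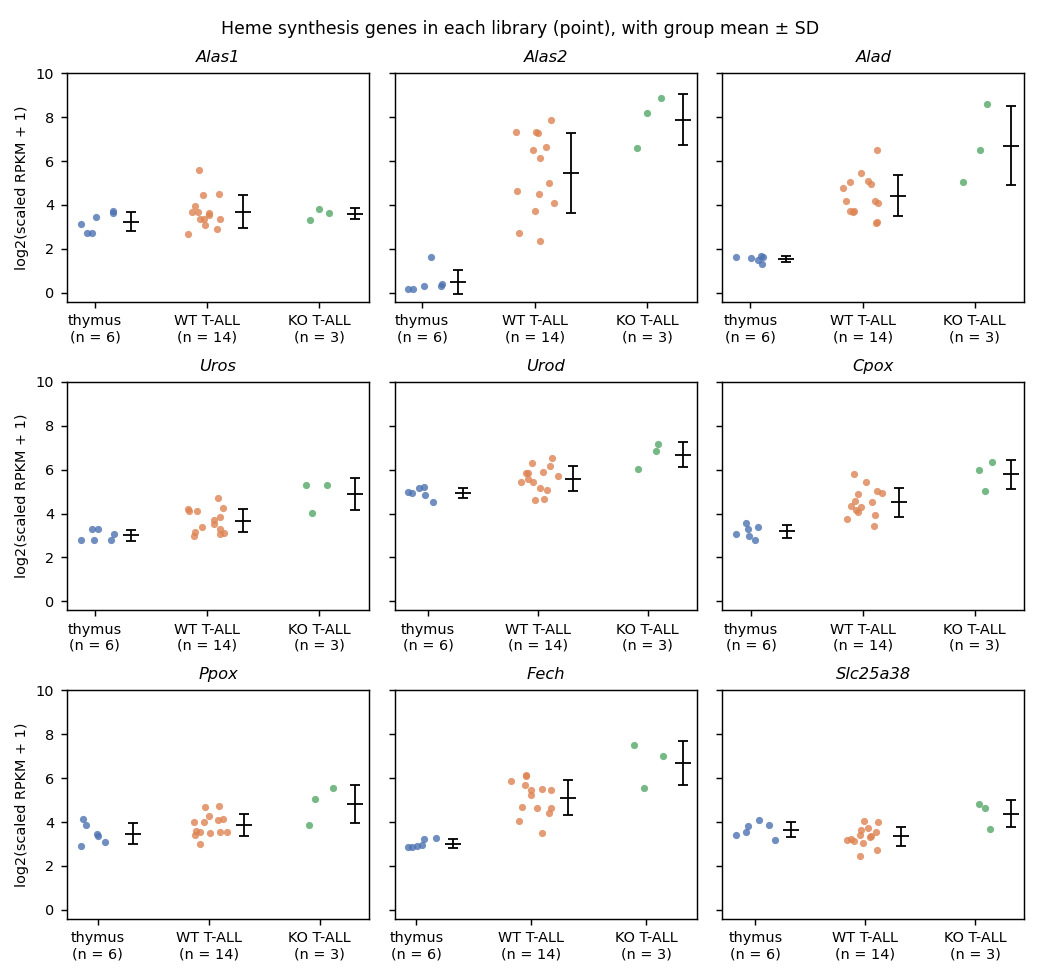
Log2(scaled RPKM + 1) of the 9 genes in every library (points), by group (6 thymus, 14 WT T-ALL and 3 Notch3 KO T-ALL), with the group mean and SD as black bars beside the points. Alas2, Alad and Fech separate thymus from all spleens, while Alas1 and Slc25a38 overlap across the 3 groups.

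The first step of the pathway showed the widest contrast. Alas2, the erythroid 5-aminolevulinate synthase (gene 11656), had log2 levels of 0.16 to 1.64 in thymus (median 0.31), 2.35 to 7.86 in WT T-ALL (median 5.57) and 6.60, 8.88 and 8.17 in Notch3 KO T-ALL 1, 2 and 3. No spleen overlapped with any thymus library, and thymus 3 stood apart from the other controls, which were at 0.38 or less. The change was 4.95 (SE 0.70, adjusted p = 5.46e-06) in WT T-ALL and 7.39 (SE 1.01, adjusted p = 9.67e-06) in Notch3 KO T-ALL. The value for WT T-ALL was 5.17 without thymus 3. Such a separation, with all spleens of a group above all thymus libraries, held for 3 of the 9 genes in WT T-ALL (Alas2, Alad and Fech), beside 8.42% of all genes. In Notch3 KO T-ALL it held for 6 of the 9 (also Cpox, Uros and Urod), beside 23.9% of all genes.

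Alas1, the synthase found in all cells (gene 11655), was at 2.73 to 3.71 in thymus (median 3.28), 2.67 to 5.58 in WT T-ALL (median 3.59) and 3.64, 3.32 and 3.81 in Notch3 KO T-ALL 1, 2 and 3. Its 3 groups overlapped. The change was 0.47 in WT T-ALL (95% interval -0.13 to 1.08, adjusted p = 0.178) and 0.36 in Notch3 KO T-ALL (-0.51 to 1.24, adjusted p = 0.522). The highest value, 5.58, was in WT T-ALL 110, which also had the highest mean of 10 neutrophil markers, 10.8, where the other WT T-ALL libraries had 4.20 to 8.97.

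Set against each other within a library, Alas2 was the lesser of the 2 synthases in thymus and the greater in most spleens. Alas1 itself was not called in either T-ALL group. Alas2 made up 1.87% to 21.5% of the scaled RPKM of both genes in thymus, with a median of 2.10%, and the highest of these was thymus 3. In WT T-ALL it made up 34.3% to 96.1%, with a median of 72.6%, and it was the lesser of the pair in WT T-ALL 5 and 7 alone. The 3 Notch3 KO T-ALL libraries had 89.3%, 98.1% and 95.6%. Neither T-ALL group overlapped with thymus. The log2 ratio of Alas2 to Alas1 was -4.88 ± 1.49 (SD, n = 6) in thymus, 1.79 ± 1.71 (SD, n = 14) in WT T-ALL and 4.41 ± 1.32 (SD, n = 3) in Notch3 KO T-ALL. The ratios in thymus rest on low values of Alas2, which had a scaled RPKM of 0.116 to 0.302 in 5 of the 6 libraries and 2.12 in thymus 3. The T-ALL groups overlapped, with 2 of the 3 Notch3 KO libraries inside the range of WT T-ALL.

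**Figure D2:**
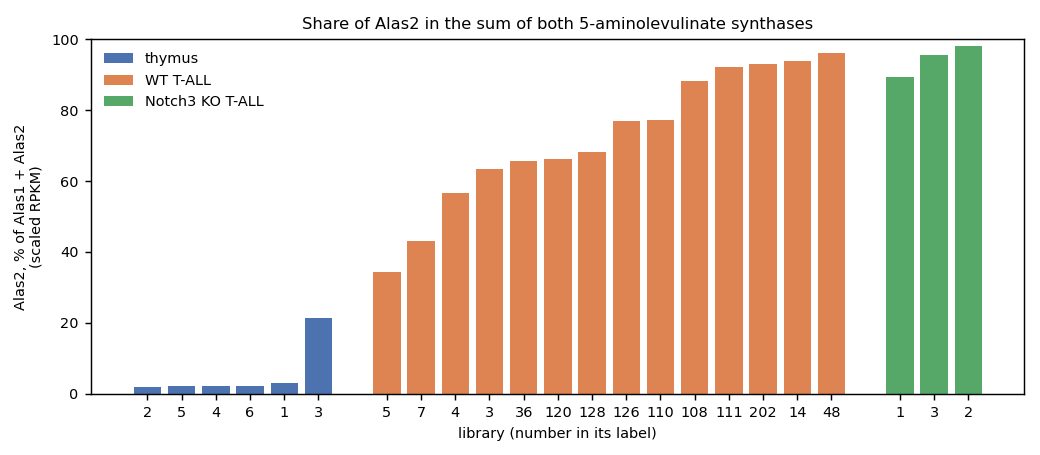
Share of Alas2 in the summed scaled RPKM of Alas1 and Alas2 (percent), 1 bar per library, sorted within thymus, WT T-ALL and Notch3 KO T-ALL. The bars of thymus stay at or below 21.5%, those of WT T-ALL run from 34.3% to 96.1%, and those of Notch3 KO T-ALL are 89.3% to 98.1%.

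Alad, which condenses 5-aminolevulinate to porphobilinogen (gene 17025), was second to Alas2 in the size of its change. It was at 1.33 to 1.67 in thymus (median 1.61), 3.17 to 6.50 in WT T-ALL (median 4.19) and 5.04, 6.48 and 8.59 in Notch3 KO T-ALL 1, 2 and 3. All spleens lay above all thymus libraries. The change was 2.86 (SE 0.43, adjusted p = 1.21e-05) in WT T-ALL and 5.15 (SE 0.62, adjusted p = 2.24e-06) in Notch3 KO T-ALL. The highest WT T-ALL value belonged to library 14, which carried the hepatocyte genes, and without that library the change was 2.70 (adjusted p = 7.2e-06). In the Notch3 KO library with 8.59, the hepatocyte mean was 0.07. The part of hepatocyte RNA in the Alad values was not tested.

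The ring-forming and ring-trimming enzymes moved less. Uros, which closes the ring (gene 22276), was at 2.77 to 3.31 in thymus (median 2.93), 2.98 to 4.71 in WT T-ALL (median 3.62) and 4.04, 5.32 and 5.30 in Notch3 KO T-ALL. WT T-ALL overlapped with thymus, with 9 of 14 libraries above all controls, while all 3 Notch3 KO libraries lay above them. Its change was 0.67 (SE 0.24, adjusted p = 0.0206) and 1.88 (SE 0.34, adjusted p = 0.000192). Urod, which trims the ring's acetate side chains (gene 22275), was at 4.55 to 5.21 in thymus (median 4.96), 4.61 to 6.53 in WT T-ALL (median 5.64) and 6.03, 7.16 and 6.85 in Notch3 KO T-ALL. Here too WT T-ALL overlapped with thymus, with 10 of 14 libraries above all controls. Its change was 0.65 (SE 0.24, adjusted p = 0.0253) in WT T-ALL and 1.73 (SE 0.34, adjusted p = 0.000435) in Notch3 KO T-ALL. The call in WT T-ALL was lost without thymus 6 (0.57, adjusted p = 0.0703) and without WT T-ALL 14 and 48 together (0.52, adjusted p = 0.0508).

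The last steps, in the mitochondrion, were not alike. Cpox (gene 12892) was at 2.81 to 3.55 in thymus (median 3.18), 3.42 to 5.79 in WT T-ALL (median 4.44) and 5.04, 5.97 and 6.34 in Notch3 KO T-ALL. All but 1 of the 14 WT T-ALL libraries lay above all controls. The change was 1.32 (SE 0.27, adjusted p = 0.000313) and 2.60 (SE 0.39, adjusted p = 2.57e-05). Ppox, the oxidase of the next step (gene 19044), was at 2.90 to 4.16 in thymus (median 3.39), 3.00 to 4.74 in WT T-ALL (median 3.79) and 3.86, 5.57 and 5.07 in Notch3 KO T-ALL. Both T-ALL groups overlapped with thymus. Its change was 0.39 in WT T-ALL (95% interval -0.12 to 0.91, adjusted p = 0.189) and 1.36 in Notch3 KO T-ALL (SE 0.36, adjusted p = 0.005), the latter at 1.00 and adjusted p = 0.0532 without Notch3 KO 2. Fech, the ferrochelatase that completes heme (gene 14151), was at 2.84 to 3.27 in thymus (median 2.94), 3.49 to 6.16 in WT T-ALL (median 5.34) and 5.57, 7.49 and 7.03 in Notch3 KO T-ALL. Like Alas2 and Alad, it was higher in all spleens than in all thymus libraries. The change was 2.09 (SE 0.33, adjusted p = 2e-05) in WT T-ALL and 3.68 (SE 0.48, adjusted p = 4.88e-06) in Notch3 KO T-ALL.

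Slc25a38, the glycine carrier that feeds the first step (gene 208638), was at 3.19 to 4.08 in thymus (median 3.69), 2.44 to 4.06 in WT T-ALL (median 3.34) and 3.66, 4.66 and 4.84 in Notch3 KO T-ALL. It was the single member with a lower mean in WT T-ALL than in thymus, and 5 of its 14 WT T-ALL libraries lay below all controls. The difference was -0.31 (95% interval -0.74 to 0.12, adjusted p = 0.214) in WT T-ALL and 0.73 (0.10 to 1.35, adjusted p = 0.0605) in Notch3 KO T-ALL. Without Notch3 KO 1 the latter was 1.09 (adjusted p = 0.0153) and without thymus 6 it was 0.81 (adjusted p = 0.0475).

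**Figure D3:**
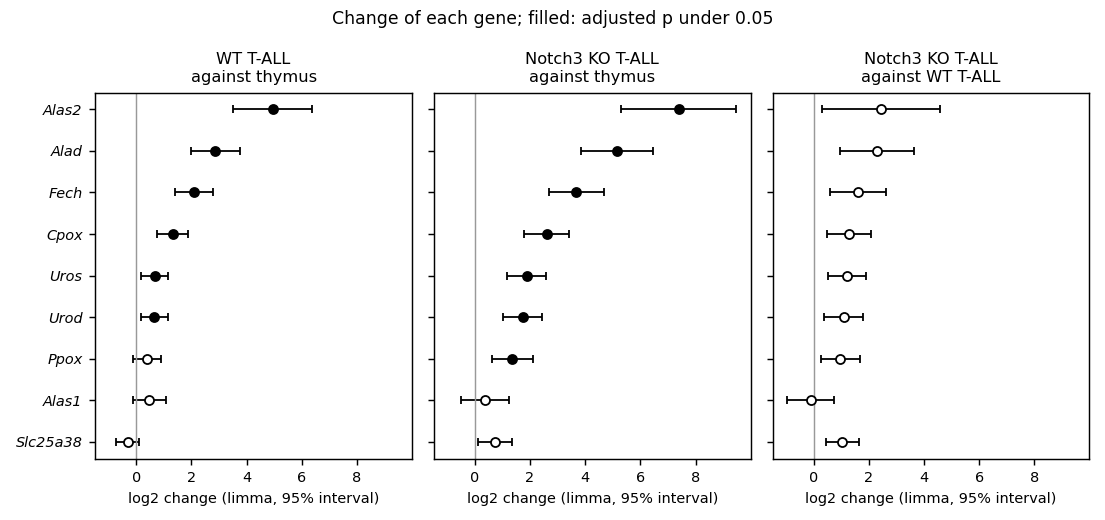
Log2 change of each of the 9 genes with its 95% interval from limma, in WT T-ALL against thymus, Notch3 KO T-ALL against thymus and Notch3 KO T-ALL against WT T-ALL. Filled points have an adjusted p under 0.05, which holds for 6, 7 and 0 of the 9 genes.

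Because RPKM is scaled by length, the members' levels were also ranked within a group, on the linear scale and as mean ± SD. In thymus Urod was the most abundant of the 9, at 30.1 ± 4.91 (SD, n = 6), well clear of Slc25a38 at 11.9 ± 2.91 and Ppox at 10.6 ± 3.93, which did not differ beyond their spread. Alas1 at 8.73 ± 2.81 and Cpox at 8.24 ± 1.78 followed, also within their spread of each other. Alad at 1.95 ± 0.254 and Alas2 at 0.522 ± 0.785 were the lowest. In WT T-ALL Alas2 came first, at 77.2 ± 73.7 (SD, n = 14), before Urod at 50.8 ± 19.95 and Fech at 38.1 ± 19.2, and Slc25a38 came last, at 9.62 ± 3.23. In Notch3 KO T-ALL Alas2 was again first, at 284.6 ± 187 (SD, n = 3), and Alas1 last, at 11.2 ± 2.05. The first place of Alas2 was within the spread in both T-ALL groups: its SD was close to its mean in WT T-ALL, and in Notch3 KO T-ALL Alad was at 167.9 ± 189, with 383 against 287 for Alas2 in Notch3 KO 3.

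Against WT T-ALL, Notch3 KO T-ALL had higher means for 8 of the 9 genes, by 0.97 to 2.45, and none of the 9 was called in limma (adjusted p = 0.116 to 0.998). Among the 11677 genes tested, 0.591% were called higher and 0.0257% lower. At an unadjusted limma p under 0.05 there were 8 of 9, all but Alas1, beside 8.51% of all genes, and a two-sided exact permutation test gave 8 of 9 at its unadjusted p, beside 8.33% of all genes. The median difference of the members was 1.21 and that of all genes was -0.00. The differences were 2.45 for Alas2 (95% interval 0.31 to 4.58), 2.29 for Alad (0.94 to 3.63) and 1.59 for Fech (0.58 to 2.61). For Cpox it was 1.28 (0.47 to 2.09), for Uros 1.21 (0.51 to 1.91) and for Urod 1.09 (0.37 to 1.80). For Slc25a38 it was 1.04 (0.44 to 1.65), for Ppox 0.97 (0.27 to 1.67) and for Alas1 -0.11 (-0.96 to 0.74).

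The 3 Notch3 KO libraries were not alike in this. Notch3 KO 1 lay inside the WT T-ALL range for each of the 9 genes. Notch3 KO 2 and 3 lay above all 14 WT T-ALL libraries for Alas2, Uros, Urod, Cpox, Ppox, Fech and Slc25a38, and Notch3 KO 3 did so for Alad, where Notch3 KO 2 at 6.48 was just under WT T-ALL 14 at 6.50. Among all genes tested, 3.78% had both Notch3 KO 2 and 3 above all WT T-ALL libraries, and this pair was picked after the values were seen. Without Notch3 KO 1, 5 of the 9 were called higher (Alad, Uros, Ppox, Fech and Slc25a38), beside 1.69% of all genes in that fit, and without WT T-ALL 108, which had the highest erythroid mean of its group, Uros was called, beside 1.3% of all genes. The difference of Alad was 1.35 without Notch3 KO 3, and that of Ppox was 0.60 without Notch3 KO 2. Over all genes 72 calls were made, which were 205 without Notch3 KO 1, 158 without WT T-ALL 108, 12 without Notch3 KO 3 and 3 without Notch3 KO 2. The erythroid mean was likewise lowest in Notch3 KO 1, at 5.99, with 7.96 in Notch3 KO 2 and 7.57 in Notch3 KO 3, against at most 6.90 in WT T-ALL. Of the 24 erythroid markers 0 were called in limma between the T-ALL groups, with a median difference of 2.15. Of the 8 megakaryocyte markers tested 1 was called higher (median difference 1.72), and of the 12 macrophage markers 0 (median difference 1.05). The 10 neutrophil and the 12 T cell markers had medians of -0.78 and -0.25, with 0 called. The part of these cell types in the members' difference was not tested.

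Within the 14 WT T-ALL spleens, the genes differed in how closely their log2 level followed the mean of the 24 erythroid markers, none of which is a member. These correlations describe 14 libraries of 1 tissue whose cell mixture varied, and all genes of a library share its mixture and depth. The values without the 2 libraries farthest from the median of the markers (WT T-ALL 5 and 7) are given as well. For Fech Pearson's r was 0.91 (Spearman's rho 0.91, 0.93 without the pair), for Alas2 it was 0.87 (rho 0.85, 0.76 without the pair) and for Urod 0.86 (rho 0.82, 0.72 without the pair). Uros, Cpox, Alad and Slc25a38 were intermediate, with r from 0.46 to 0.61. Alas1 had an r of 0.31 (rho 0.25, 0.11 without the pair) and Ppox 0.23 (rho 0.16, 0.49 without the pair). A rise of 1 in the erythroid mean went with a rise of 1.43 in Alas2, 0.65 in Fech, 0.44 in Urod and 0.21 in Alas1.

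With the neutrophil markers Alas1 had r = 0.77 (rho 0.53), and r was 0.33 without WT T-ALL 108 and 110, so that relation rests on those libraries. Alas2 had r = 0.58 with the same markers (rho 0.66, 0.44 without the pair). With the 12 macrophage markers r was 0.53 for Alas1 (rho 0.47, 0.54 without WT T-ALL 36 and 108) and 0.65 for Alas2 (rho 0.69, 0.63 without them). Slc25a38 and Ppox ran against the mean of the 12 T cell markers, at r = -0.58 (rho -0.64) and -0.51 (rho -0.54), and at -0.79 and -0.85 without WT T-ALL 110 and 120. For Alas1 it was -0.51 (rho -0.27, -0.12 without the pair) and for Cpox -0.47 (rho -0.57, -0.65 without the pair). In Alas2 and Fech the same correlation was -0.09 and -0.03.

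**Figure D4:**
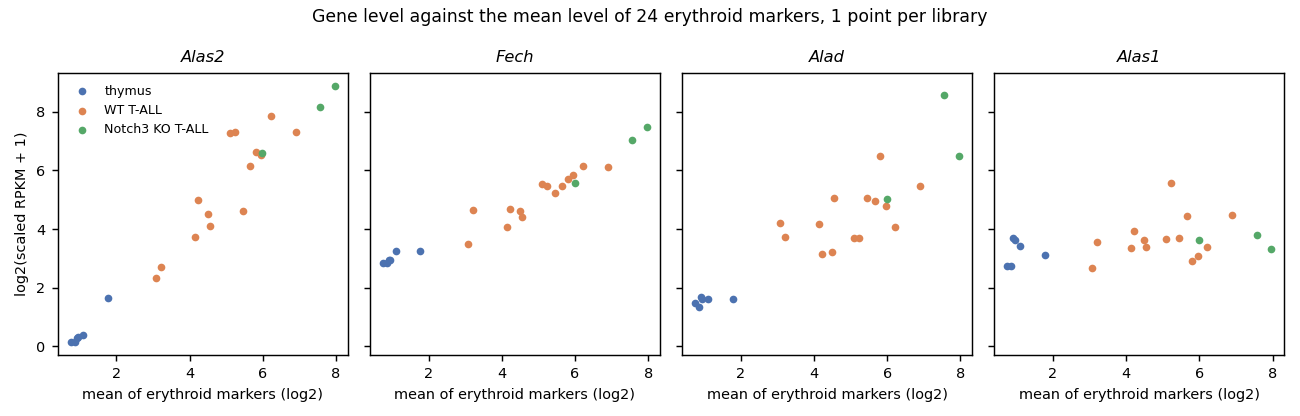
Log2(scaled RPKM + 1) of Alas2, Fech, Alad and Alas1 against the mean log2 level of 24 erythroid markers, 1 point per library, coloured by group. Alas2 and Fech rise with the marker mean in WT T-ALL (r = 0.87 and 0.91), Alad less closely (r = 0.53). Alas1, at 2.67 to 5.58, follows it less closely still (r = 0.31).

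The 36 pairs of members had r from -0.21 to 0.91 over these 14 spleens, with a median of 0.35. Alas2, Fech and Urod, the first enzyme, the last and one between, went together: r was 0.91 for Alas2 and Fech (rho 0.91, 0.91 without WT T-ALL 5 and 7), 0.71 for Alas2 and Urod (0.45 without WT T-ALL 5 and 7) and 0.76 for Urod and Fech. Alad, Cpox and Uros also went together, with r = 0.84 for Alad and Cpox (rho 0.93, 0.95 without WT T-ALL 14 and 108), 0.82 for Uros and Cpox and 0.72 for Alad and Uros. Slc25a38 ran with these as well, at r = 0.76 with Cpox (rho 0.78), 0.75 with Uros (rho 0.72) and 0.53 with Alad (rho 0.64). For Alas2 r was 0.23 with Alad and 0.17 with Cpox. Ppox was closest to Slc25a38, at r = 0.79 (rho 0.71, 0.78 without WT T-ALL 7 and 108). Alas1 had no r above 0.44 with any other member. The members of a pair share a library and its depth, and these groupings were read from the values, run into each other and were not tested.

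**Figure D5:**
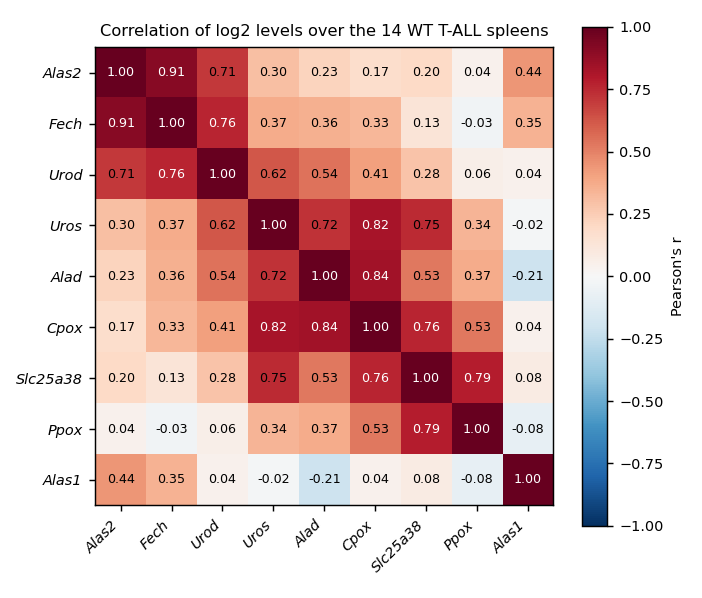
Pearson's r between the log2 levels of each pair of the 9 genes over the 14 WT T-ALL spleens, with colour from -1 (blue) to 1 (red). Alas2, Fech and Urod fill the upper left block (0.71 to 0.91), Uros, Alad and Cpox the central one (0.72 to 0.84), Slc25a38 runs with Cpox and Uros (0.76 and 0.75), and Ppox and Slc25a38 reach 0.79.

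Over all 17 spleens, the genes most like a member were sought among 8073 genes with a mean scaled RPKM of 5 or more. Among the 5 nearest to Alas2 were Hbb-bs (r = 0.988), Hba-a2 (0.975), Rsad2 (0.975) and Hbb-b2 (0.970); 3 of these are globin genes, Hbb-b2 and Hbb-bt had the same values in all 17 spleens, and reads of near-identical globin copies cannot be told apart. Among the 5 nearest to Alas1 were Gys1 (0.886), Slc27a4 (0.877), Slc39a11 (0.857) and Rab5b (0.854). Rsad2 encodes an antiviral enzyme, Gys1 glycogen synthase and Slc27a4 a fatty acid transporter. Hbb-bs had group means of 1.63, 11.5 and 14.3 in thymus, WT T-ALL and Notch3 KO T-ALL, where Gys1 had 2.32, 2.80 and 2.68.

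Genes that serve the pathway were read from 6 lists with 68 genes, of which 66 were tested. Against thymus, WT T-ALL had 39 called higher and 5 lower (median change 0.60), and Notch3 KO T-ALL had 40 and 4 (median 0.87). Over all genes the shares were 29.3% and 22.3% in WT T-ALL and 21.2% and 16.3% in Notch3 KO T-ALL, with a median of 0.08 in each, and the counts of the single lists are to be read against these. Mitochondrial iron, porphyrin and glycine handling had 8 of 14 called higher in WT T-ALL and 10 of 14 in Notch3 KO T-ALL, with 0 lower in either. Iron-sulfur cluster assembly had 11 and 9 of 15 higher, with 0 lower. Iron uptake, storage and sensing had 8 of 13 higher and 1 lower in each. Heme export, breakdown and use had 5 of 11 higher in each and, in Notch3 KO T-ALL, 1 lower. Among the regulators WT T-ALL had 6 of 12 higher and 4 lower, and Notch3 KO T-ALL had 7 and 2.

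The largest rises in these lists were the same 4 genes in both comparisons. Klf1, the erythroid Krüppel-like factor, rose by 3.71 in WT T-ALL (adjusted p = 6.99e-08) and 5.51 in Notch3 KO T-ALL (adjusted p = 1.53e-07). Tal1, an erythroid and leukemia transcription factor, rose by 3.09 (adjusted p = 4.83e-07) and 5.03 (adjusted p = 2.82e-07). Blvrb, a biliverdin reductase rich in red cells, rose by 3.40 (adjusted p = 6.99e-08) and 5.02 (adjusted p = 1.61e-07), and Hmox1, the inducible heme oxygenase of macrophages, by 3.34 (adjusted p = 3.28e-06) and 4.61 (adjusted p = 1.56e-05). Klf1 and Gata1 are the genes shared by these lists and the erythroid markers. Macrophage markers rose in the same comparisons, 11 of 12 in WT T-ALL and 12 of 12 in Notch3 KO T-ALL.

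The largest falls in WT T-ALL were Bach1, a heme-binding repressor (-0.76, adjusted p = 0.000385), Foxo1 (-0.75, adjusted p = 0.0046), Mafk, a partner of Bach1 (-0.54, adjusted p = 0.00392), and Nrf1, which encodes the factor of the NRF1 site (-0.37, adjusted p = 0.00794). In Notch3 KO T-ALL they were Foxo1 (-0.83, adjusted p = 0.0336), Bach1 (-0.78, adjusted p = 0.01), Hccs, which attaches heme to cytochrome c (-0.67, adjusted p = 0.0244), and Ireb2, an iron-sensing RNA-binding protein (-0.51, adjusted p = 0.0175). Chosen after their values were seen, the transferrin receptor Tfrc rose by 2.12 and 3.09 (adjusted p = 1.16e-06 and 3.05e-06) and the porphyrin carrier Tmem14c by 0.98 and 1.85 (adjusted p = 7.67e-05 and 8.17e-06). The iron carrier of erythroid mitochondria, Slc25a37, likewise chosen, differed by 0.33 in WT T-ALL (adjusted p = 0.354) and rose by 1.88 in Notch3 KO T-ALL (adjusted p = 0.00138).

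Between the T-ALL groups, 2 of the 66 related genes were called, both toward a greater level in Notch3 KO T-ALL: Slc25a39, a mitochondrial glutathione carrier, by 0.98, and Eif2ak1, the heme-regulated kinase that slows globin translation when heme is scarce, by 0.91 (adjusted p = 0.0422 for both). Over all genes 0.591% were called higher and 0.0257% lower. The number was 0 with no filter or with an offset of 0.1, 9 without Notch3 KO 1 (1.69% of all genes higher), 7 without WT T-ALL 108 (1.3% of all genes), and 0 or 1 without any other single library.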

How the data were processed

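The deposited table gave 24475 genes in 23 libraries as log2 values. Per the labels and the study's methods, the authors sequenced stranded mRNA libraries as read pairs, mapped them to the mouse build mm10 with the OSA aligner in ArrayStudio and computed RPKM; the deposited log2 values were read from their own distribution as log2(RPKM + 1) with a 75th percentile of 10. The offset of 1 damps low genes. These values are not counts, so no count test was run. Whether libraries are separate animals is known only as far as the labels name them; p-values measure the spread between these samples.

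Values were tested as deposited with limma 3.58.1 in R 4.3.3 (trend and robust variance; filter of 1 in at least 3 samples). All 3 groups were fitted together for comparisons with thymus, and the T-ALL groups alone for Notch3 KO against WT. Exact permutation tests and correlations used Python 3.11.15 with scipy 1.17.1. The fit was tested on simulated data. The fit without WT T-ALL 14 and 48 was added after seeing the data. The members, gene lists and motifs were chosen with earlier results of these data known. Named related genes were the 4 largest called rises and falls in each comparison; genes were named from the 5 most like Alas2 and Alas1 by r, without predicted genes. Some items that these rules select are not reported here. Of 25 erythroid markers 24 were found. Positions and promoter windows came from RefSeq (GRCm38.p6). The alternatives were no filter, a filter at 5, an offset of 0.1, quantile normalization, plain limma variance, other samples in the fit, a replicate block and each library left out. The labels name no batch.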

Additional observations from a re-analysis of the deposited data

Results flagged for a closer look

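Of 9 groups of thymus values examined (the 9 genes, 6 libraries each), 1 held a library far from the others. Chance gives this in about 1 in 20 for any single group, and so more often somewhere among 9. Alas2 was at 1.64 in thymus 3, where the other 5 controls were at 0.16 to 0.38, and the gap to the nearest of them was 0.85 of the whole range (critical value 0.625). Thymus 3 also had the highest thymus values of the erythroid marker mean, 1.78, and of the globin share, 0.117%; their part in the Alas2 value was not tested.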

How the results depend on the processing

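Against thymus, the number of members called stayed at 5 to 6 for WT T-ALL when single libraries were left out, and at 6 to 8 for Notch3 KO T-ALL, and the number of related genes at 42 to 45 and 33 to 44. Between the T-ALL groups the count of 0 members became 3 with all 3 groups in the fit, 8 by the exact test at its unadjusted p, and 0 to 5 with single libraries left out; the 2 related genes became 0 with no filter, 0 with an offset of 0.1, 1 with quantile normalization, 1 without WT T-ALL 14 and 48, and 0 to 9 with single libraries left out. The difference of Alas1 ran from -0.2225 to 0.0329 with single libraries left out and turned positive without WT T-ALL 110 (0.0329) and without Notch3 KO 2 (0.024). Urod in WT T-ALL was not called with no filter (adjusted p = 0.0596), and Slc25a38 in Notch3 KO T-ALL was called with 2 groups in the fit (adjusted p = 0.0422). Over all genes, the 72 calls between the T-ALL groups were 38 with no filter, 6 with a filter at 5, 39 with an offset of 0.1, 254 with all 3 groups in the fit and 3 to 205 with single libraries left out, and the 4475 calls in Notch3 KO T-ALL against thymus were 2859 without Notch3 KO 3. Quantile normalization moved the median change of all genes in Notch3 KO T-ALL from 0.08 to -0.05. Same-numbered libraries of different groups correlated at -0.24 to 0.15 in their deviations, so the numbers do not pair them. With a replicate block 2926 genes rather than 6150 were called in WT T-ALL and 3643 rather than 4475 in Notch3 KO T-ALL. Uros (0.65, adjusted p = 0.212) and Urod (0.07, adjusted p = 0.857) in WT T-ALL were not called with it. In that fit a library whose number occurs in no other group adds nothing to the comparison. The blocked change of WT T-ALL therefore rests on libraries 3, 4 and 5, fewer than in the main fit. The causes of the other shifts were not tested. Relative depth of 17.05% of the deepest library in thymus 6 and 27.3% in thymus 5 limits the low values of Alas2 there. The other thymus libraries had 49.6% to 61.7%.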
